A study of Homo sapiens with 19 samples.

Results

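The circadian clock genes described here are PER1, PER2, PER3, CRY1, CRY2, BMAL1, CLOCK, NR1D1, NR1D2 and DBP. The cells were of KhES-3, an embryonic stem cell line of human origin, followed during the first 72 h of differentiation into brown adipocytes (BAs). The 10 genes were found by matching the RefSeq transcript that the array names for each probe to the gene symbol, which gave 14 probes, out of 50683 probes and 20503 matched genes in all. RNA was taken at 19 time points, and every sample had the same treatment, suspension in low-attachment dishes in a serum-free medium with IGF-II, BMP4, VEGFA, KITLG, FLT3LG and IL-6. There was 1 array for each time point, no uninduced sample and no replicate, and all cells were of 1 line, so the only measure of error was how far the 19 arrays lay from each fitted curve. Of 3 slides, the first held 6 arrays (3, 4, 6, 8, 10 and 12 h), the second 8 arrays (14, 16, 20 and 24 h, then 28, 32, 36 and 42 h) and the third 5 arrays (48, 54, 60, 66 and 72 h). Time and slide therefore overlap. The slope, the 24 h component and the change of slope at 24 h were each fitted again with the slide as a block. Other periods and trends were not.

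The circadian clock is a transcriptional feedback loop that most differentiated cells run with a period of about a day. The proteins BMAL1 and CLOCK bind E-box sequences together and activate the PER and CRY genes, whose products return to the nucleus and inhibit BMAL1 and CLOCK. In another loop NR1D1 and NR1D2 (REV-ERB alpha and beta) repress BMAL1, and DBP carries the rhythm to output genes through D-box sequences. Embryonic stem cells are known to express these genes without the coordinated daily rhythm of differentiated cells, and the rhythm is known to appear as cells differentiate. The questions asked of the data were whether each gene moved along a trend over the 72 h and whether any component with a period of 24 h lay beside it.

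Signals were divided by the array's 75th percentile and multiplied by 871, the geometric mean of these percentiles. Each gene is represented by its brightest probe, and all 10 genes were well above background on all 19 arrays by that probe. Between 49.6% and 64.8% of all probes were well above background on an array, with the lowest share at 14 h. The pluripotency markers stayed measurable, with 9 of 9 tested genes well above background on every array, whereas 0 of 7 brown adipocyte markers were so on every array and FABP4 on none. Of the markers of other cells, 3 of 7 primitive streak and mesoderm genes, 2 of 4 neuroectoderm genes and 3 of 6 fibroblast genes (COL1A1, COL1A2 and THY1, but not COL3A1, DCN or LUM) were so on every array, and their part in the results below was not tested. Between the early arrays (the mean of 3, 4 and 6 h) and the late ones (the mean of 60, 66 and 72 h) tested probes changed by a median of 0.13 log2. This was -0.24 if the median of the array set the scale and -0.52 if spike-in RNA, control transcripts added to each sample, did so. Directions below are relative to the 75th percentile, and in RNA from whole cultures fewer cells expressing a gene and less RNA per cell cannot be told apart.

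RefSeq promoters of the 10 genes (GRCh38.p14, 300 bases each, 250 before the start and 50 from it on) were searched on both strands for the elements through which the loop acts. There were 15 promoters, since several genes have 2 starts. The E-box CACGTG was found in 2 of the 15 (7.26% of all 35116 promoters hold it) and its variant CACGTT, the E-prime-box, in 5 (5.34%). The D-box, TTATGTAA or TTACGTAA, was found in 3 (1.01% of all promoters) and the core of the element bound by ROR and REV-ERB proteins, TAGGTCA or TGGGTCA, in 4 (5.69%). The cAMP element TGACGTCA was found in 0 (1.85%), and DBP held none of these letters in its window. The E-boxes lay before the starts of PER1 and NR1D2, both shown here as the 250 bases before the start, with every match in capitals.
PER1, chr17:8152405-8152654, minus strand: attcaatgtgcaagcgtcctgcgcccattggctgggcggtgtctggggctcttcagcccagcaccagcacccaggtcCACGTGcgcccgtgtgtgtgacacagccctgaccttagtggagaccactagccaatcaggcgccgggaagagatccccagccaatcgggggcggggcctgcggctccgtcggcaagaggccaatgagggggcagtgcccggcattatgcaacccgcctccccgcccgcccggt
NR1D2, chr3:23945871-23946120, plus strand: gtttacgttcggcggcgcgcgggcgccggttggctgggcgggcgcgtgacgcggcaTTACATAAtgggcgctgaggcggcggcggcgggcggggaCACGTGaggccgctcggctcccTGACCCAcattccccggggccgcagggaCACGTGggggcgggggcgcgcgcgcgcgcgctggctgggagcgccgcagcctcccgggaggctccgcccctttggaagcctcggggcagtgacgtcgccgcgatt
NR1D2 held 2 E-boxes, a D-box and a ROR element core (as the reverse complement TGACCCA), all within 194 bases before the start. The remaining matches are shown as 30 bases each, with the matched letters in capitals. The E-prime-box is printed as AACGTG, its reverse complement, where it was matched on the other strand.
PER2 E-prime-box, chr2:238288790-238288819, minus strand: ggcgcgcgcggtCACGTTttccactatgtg
PER2 D-box, chr2:238288595-238288624, minus strand: cccgctgcggcTTACGTAAccgccgccggc
PER3 D-box, chr1:7784103-7784132, plus strand: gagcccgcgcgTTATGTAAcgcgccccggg
CRY1 E-prime-box, chr12:107093621-107093650, minus strand: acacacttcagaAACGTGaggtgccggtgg
CRY2 E-prime-box, chr11:45847275-45847304, plus strand: acacatggtaggAACGTGagggggcgggcc
CRY2 ROR element core, chr11:45847399-45847428, plus strand: ttgcggcgtcaTAGGTCActgggcgggcta
BMAL1 ROR element core, chr11:13277809-13277838, plus strand: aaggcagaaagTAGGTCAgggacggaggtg
CLOCK E-prime-box, chr4:55546102-55546131, minus strand: tcaccactcgggCACGTTtggagcagcgcc
CLOCK ROR element core, chr4:55546131-55546160, minus strand: gctaggccttgTGACCCActttattcctgt
NR1D1 E-prime-box, chr17:40100740-40100769, minus strand: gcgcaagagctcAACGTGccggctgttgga
The element in BMAL1 began at base 31 of the transcript, while those in CRY2 and CLOCK lay before it. A match of letters is no measure of binding, which was not assayed.

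BMAL1, the partner of CLOCK in the activating complex, was the member with the widest range and the one that fell. That its range was the widest rested on the 72 h array (145). Without that array its lowest value was 355, and DBP (340 to 1711) had a wider range. On the first slide its signal was 1192, 1181, 1187, 939, 824 and 816 at 3, 4, 6, 8, 10 and 12 h. On the second it was 752, 867, 780, 687, 639, 473, 470 and 513 from 14 to 42 h. On the third it was 371, 355, 395, 441 and 145 at 48, 54, 60, 66 and 72 h. The first 3 arrays were the highest, and all 8 arrays from 32 h on were below all arrays up to 28 h. The slope of log2 signal on hours was -0.0319 (standard error 0.0030, limma adjusted p = 1.01e-07), and the mean of the 3 latest arrays, 293, was 4.05-fold below that of the 3 earliest, 1187. Beside the slide block its slope was -0.0364 (standard error 0.0088, adjusted p = 0.0182), and within the first and second slides it was -0.0721 and -0.0312 log2 per hour. Within the third it was -0.0400 (standard error 0.0320) and rested on the 72 h array, since without that array it was 0.0151 (standard error 0.0064, 4 arrays). Over the whole course the slope without the 72 h array was -0.0272 (adjusted p = 3.1e-07). BMAL1 kept a falling slope when scaled by the array median (-0.0372) or by spike-in RNA (-0.0404).
CLOCK, the other partner of the complex, did not share this course. Its signal was lowest at 48 h (583), with a median of 706 and its highest value at 60 h (956), a range of 1.64-fold. The slope of CLOCK was 0.0009 (standard error 0.0022, adjusted p = 0.758), and its sign turned under several settings. Of 16728 genes tested, 29.8% had a falling slope at an adjusted p under 0.05 and 1 of 10 clock genes did. Beside the slide block these were 5.95% and the same 1 gene, BMAL1.

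**Figure D1:**
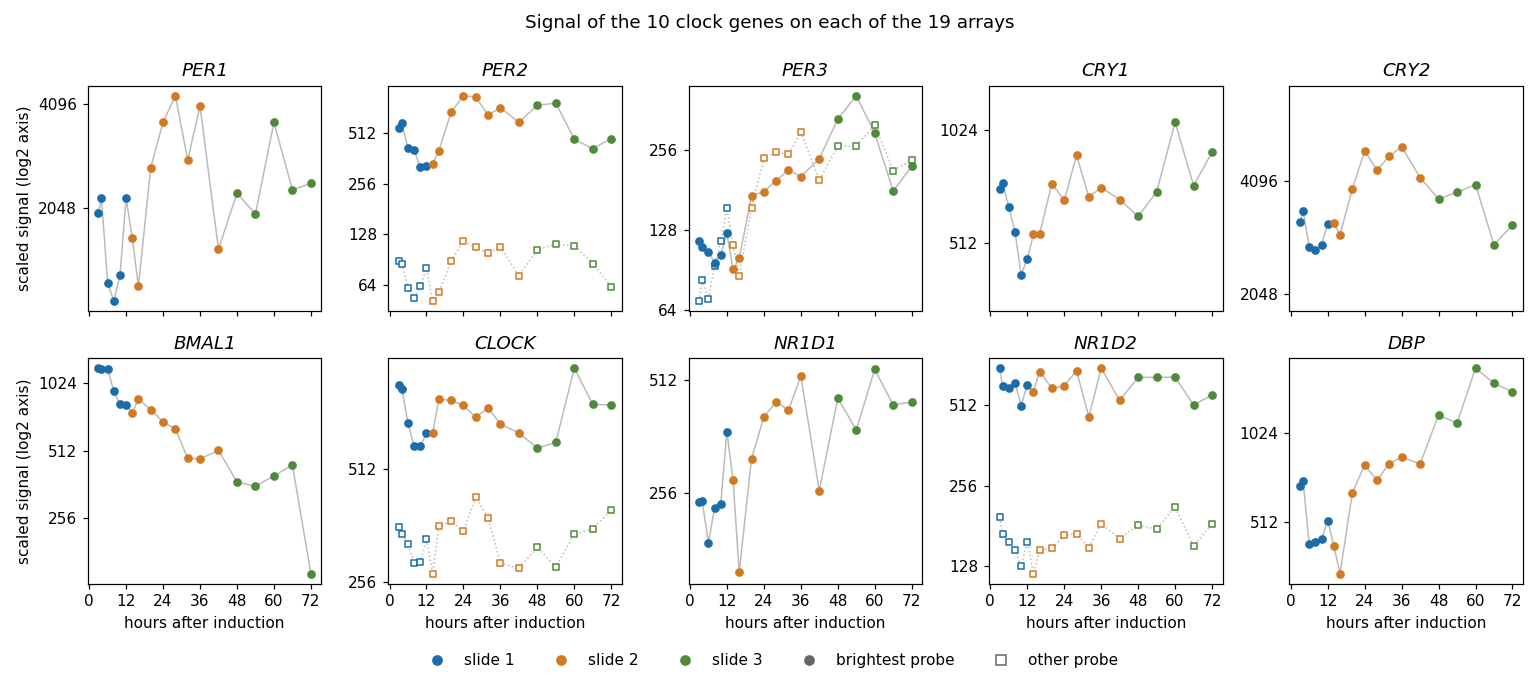
Scaled signal (log2 axis) of each clock gene against hours after induction, 1 point for each of the 19 arrays, coloured by slide. Filled circles are the brightest probe and open squares the other probe of a gene. BMAL1 runs down from 1192 to 145, DBP and PER3 run up, and PER1 moves up and down between 1099 and 4329.

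DBP, PER3, NR1D1 and CRY1 rose. A rising slope was called in 4 of the 10 genes, against 24.6% of all genes tested. Beside the slide block it was called in 0 of 10, against 4.12% of genes, so none of these rises passed the test beside the slide. Scaled by the array median 3 genes rose, without CRY1, and scaled by spike-in RNA DBP alone did.
DBP, the D-box activator that is itself a target of BMAL1 and CLOCK, rose most steeply of the brightest probes. Its signal was 677 and 706 at 3 and 4 h and between 430 and 516 from 6 to 12 h. It was 423 and 340 at 14 and 16 h, then 640, 800, 707, 808, 851 and 805 from 20 to 42 h. On the third slide it was 1183, 1110, 1711, 1521 and 1420, so all 5 arrays from 48 h on exceeded every earlier one. DBP had a slope of 0.0269 log2 per hour, with a standard error of 0.0034 (adjusted p = 3.37e-06), and the late mean of 1547 was 2.62-fold the early mean of 590. Beside the slide block its slope was 0.0271 (standard error 0.0097), nearly the same in size, with an adjusted p of 0.0875. On the first slide DBP had a negative slope, -0.0583, and on the second a positive one, 0.0404.
PER3, the third of the period proteins, was measured by 2 probes. By the brightest its signal was between 90.8 and 124 on every array up to 16 h. It was 172, 178, 196, 215, 203 and 237 from 20 to 42 h and 334, 409, 296, 179 and 222 from 48 to 72 h. The arrays from 20 h on were thus all above those up to 16 h. PER3 had a slope of 0.0239 log2 per hour, with a standard error of 0.0041 (adjusted p = 7.83e-05), and of 0.0154 beside the slide block (adjusted p = 0.443). The other probe had a slope of 0.0271, with a late mean 3.41-fold the early one against 2.06-fold by the brightest probe.
NR1D1, the nuclear receptor that represses BMAL1, had a signal of 188 to 243 from 3 to 10 h and 372 at 12 h. It was 276, 157, 315, 407, 447, 424, 524 and 259 on the second slide and 457, 376, 545, 438 and 447 on the third. Over all arrays the slope was 0.0165 log2 per hour (standard error 0.0039, adjusted p = 0.00158). The early mean was 223 and the late mean 474, 2.13-fold higher. The scatter around its line was large (SD 0.382 log2), and beside the slide block the slope of 0.0199 had an adjusted p of 0.288.
CRY1, one of the cryptochromes that inhibit the complex, had the smallest of the called slopes. Its signal was lowest at 10 h (422), with a median of 679 and the highest value at 60 h (1075). The slope was 0.0083 log2 per hour (standard error 0.0029, adjusted p = 0.0195). This call was lost without the 60 h array (adjusted p = 0.064) or the 72 h array (0.0549), over 3 to 54 h (slope 0.00526, adjusted p = 0.304), on log2 hours (adjusted p = 0.093) and with normexp and quantile normalization (adjusted p = 0.0549). It was lost too with the array median (0.00308, adjusted p = 0.432) and the spike-in RNA (-0.000122).

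Like CLOCK, the genes PER1, PER2, CRY2 and NR1D2 had no called slope over the 72 h. Over 3 to 54 h alone PER2 (slope 0.0200, adjusted p = 0.0127) and CRY2 (0.0123, adjusted p = 0.0148) were called as rising by limma. So were 9430 of the 32162 probes tested. NR1D2, the other REV-ERB, varied least of all members by the brightest probe of each. Its signal lay between 463 (32 h) and 704 (36 h), a range of 1.52-fold, with a slope of -0.0011 (standard error 0.0019, adjusted p = 0.632). The other probe of NR1D2 had a wider range, 1.78-fold, from 120 (14 h) to 213 (60 h). The median range of the members was 1.60 log2 against 1.06 log2 for all genes tested.
PER1, the period gene that responds at once to cAMP and glucocorticoid signals, had the largest scatter around its line of the 10 genes. Its signal was 1977, 2185, 1244, 1099, 1304 and 2182 on the first slide. On the second it was 1680, 1213, 2681, 3628, 4329, 2819, 4038 and 1554, and on the third 2260, 1965, 3624, 2312 and 2411. The 4 arrays from 24 to 36 h held 3 of its 4 highest values. The slope was 0.0110 (standard error 0.0057, adjusted p = 0.109), with an SD around the line of 0.562 log2.
PER2, the period protein that forms the core of the inhibiting complex, was lower on every array from 6 to 16 h than on any from 20 to 54 h. Its signal was 553, 590, 418, 407, 321 and 326 on the first slide. It was 338, 404, 684, 858, 842, 660, 728 and 596 on the second, and 753, 775, 473, 415 and 477 on the third. The highest value, at 24 h, was 2.67-fold the lowest, at 10 h.
CRY2, the other cryptochrome, moved between 2672 at 8 h and 5045 at 36 h, with a median of 3394. It was 3168, 3394, 2733, 2672, 2767 and 3136 on the first slide, 3154, 2937, 3895, 4909, 4377, 4752, 5045 and 4175 on the second, and 3659, 3814, 3998, 2761 and 3119 on the third. All 5 arrays from 24 to 42 h were above all other arrays.

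On a scale shorter than the 72 h trend, several members were low and high on similar arrays. Of the 10 genes, 7 had their lowest array between 8 and 16 h and their highest between 24 and 60 h, a course found in 11.5% of all genes tested. These were PER1, PER2, PER3, CRY1, CRY2, NR1D1 and DBP, each by its brightest probe. By its other probe PER3 had its lowest array at 3 h, whereas the other probes of PER2, CLOCK and NR1D2 had the course. These were lowest at 14 h, on the array with the lowest share of probes well above background (49.6%) and the most flagged spots (814). The other probe of PER2 was not well above background on that array. The bounds of 8 to 16 h and 24 to 60 h were set around the members' own lowest and highest arrays, so the share describes the members and supports nothing. The windows compared next were also chosen after the values were seen, lie within single slides and hold different time points, and they are given without a test.
Within the first slide the mean at 3 and 4 h was above that at 8 and 10 h in 10 of 10 members, against 52.3% of all genes. The median difference was 0.48 log2 among the members and 0.01 log2 among all genes. PER1 was 2079 at 3 and 4 h and 1197 at 8 and 10 h (1.74-fold), PER2 571 and 361 (1.58-fold), and DBP 691 and 441 (1.57-fold). NR1D1 was nearly level, at 242 and 236. These values are of the brightest probes. By its other probe PER3 went the other way, with 69 and 82.6 at 3 and 4 h and 93.7 and 116 at 8 and 10 h. The other probes of PER2, CLOCK and NR1D2 were higher at 3 and 4 h, like the brightest. Scaled by spike-in RNA all 10 were again higher at 3 and 4 h, but so were 72.5% of all genes, and with the array median all 10 and 70.5%.
Within the second slide the mean at 24 to 36 h was above that at 14 and 16 h in 8 of 10 members, against 50.3% of all genes. The median difference was 0.85 log2 among the members and 0.00 among all genes. PER1 went from 1427 to 3657 (2.56-fold), NR1D1 from 209 to 448 (2.15-fold), PER2 from 369 to 768 (2.08-fold), DBP from 379 to 790 (2.08-fold) and PER3 from 95.5 to 197 (2.07-fold). CRY2 went from 3043 to 4764 (1.57-fold) and CRY1 from 541 to 731 (1.35-fold). CLOCK was nearly level (711 and 722), and BMAL1 (807 and 559) and NR1D2 (627 and 607) were lower. By their other probes NR1D2 (133 and 167, 1.26-fold) and CLOCK (311 and 358, 1.15-fold) were higher at 24 to 36 h, as were PER2 and PER3. The count was 8 with the array median, against 48.5% of genes, and 7 with the spike-in RNA, without CLOCK, against 42.9%. The arrays at 14 and 16 h, to which the later ones are compared, had the lowest shares of probes well above background (49.6% and 52.1%) and the most flagged spots (814 and 608), and the part of this in the differences was not tested.

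A straight line bent at 24 h was fitted to ask whether the first day differed from the later time. The slope changed downward at 24 h in 2 of 10 members (21.4% of all genes tested) and upward in 0 (23.6%). CRY2 went from 0.0374 log2 per hour (standard error 0.0074) to -0.0106, a change of -0.0480 (standard error 0.0100, adjusted p = 0.000992). PER2 went from 0.0437 (standard error 0.0144) to -0.0103, a change of -0.0540 (standard error 0.0195, adjusted p = 0.0319). PER1 had a larger change that missed the threshold, -0.0595 (standard error 0.0239, adjusted p = 0.0513). In the fit with the slide as a block none of the 10 was called by its brightest probe, with an adjusted p of 0.151 for CRY2 (change -0.0481) and of 0.304 for PER2 (change -0.0692).
The probes of a gene did not always agree. The other probe of PER3 changed by -0.0780 (standard error 0.0143, adjusted p = 0.00037), and by -0.1442 with the slide as a block (adjusted p = 0.00328), whereas the brightest changed by -0.0365 (adjusted p = 0.106). The other probe of PER2 changed by -0.0333 (adjusted p = 0.123).

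A component with a period of 24 h was tested as a cosine and a sine beside the straight line. At an adjusted p under 0.05 it was called in 0 of the 10 members and in 0% of the 16728 genes by limma, with 0 of 32162 probes called and a smallest adjusted p of 0.758. At an unadjusted p under 0.05 it was seen in 1 of 10 members, PER2, against 6.73% of genes, and with the slide as a block in the same 1, against 7.56%. A daily rhythm was thus not detectable with 19 arrays over 72 h, which does not show that none was there.
PER2 had the largest 24 h amplitude of the members, 0.367 log2 (standard error 0.122, unadjusted p = 0.0258, limma adjusted p = 0.758), with the fitted peak 1.5 h into each 24 h. With the slide as a block its amplitude was 0.477 (standard error 0.0936, unadjusted p = 0.000457, adjusted p = 0.64). These values are of its brightest probe. The other probe of PER2 had an amplitude of 0.183 (standard error 0.116, limma unadjusted p = 0.308). With the slide as a block this was 0.262 (standard error 0.132, unadjusted p = 0.162), so the low unadjusted p was not shared by both probes. PER3 followed with 0.225 (standard error 0.121) and DBP with 0.217 (standard error 0.0957). BMAL1, which peaks opposite to the PER genes in rhythmic tissue, had an amplitude of 0.0971 (standard error 0.100), no larger than its error. CRY2 and NR1D2 had 0.045 and 0.037. The members' median amplitude was 0.145 log2 against 0.0972 for all genes, and their median range was wider too (1.60 against 1.06 log2). Of the variance left after the line, 24 h took up a median of 10.4% over all genes. It took up more in PER2 (35.4%), DBP (24.3%), PER3 (17.4%) and CRY1 (16.6%). It took up less in PER1 (3.8%), CRY2 (1.3%), BMAL1 (5.6%), CLOCK (4.1%), NR1D1 (8.1%) and NR1D2 (2.7%).
The slopes hardly moved when the 24 h component was in the model. That of BMAL1 was -0.0328, of DBP 0.0277, of PER3 0.0254 and of NR1D1 0.0183 log2 per hour, and the same genes were called, CRY1 among them (0.0087, adjusted p = 0.0227).

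The period of 24 h did not stand out from others. Of 9 periods between 12 and 36 h, 24 h took up the most of the variance left after the line in 0 of 10 members, and in 4.9% of all genes. The best period was 28 h for PER2 (65.4% of that variance, against 35.4% at 24 h), PER3 (51.1%) and DBP (44.6%). It was 32 h for CRY1 (52.0%) and CRY2 (33.4%) and 36 h for PER1 (53.7%). BMAL1 (44.8%) and CLOCK (39.6%) had their best period at 20 h, and NR1D1 (30.7%) and NR1D2 (33.0%) at 12 h. Periods of 28 h and more fit 59.5% of all genes best, so the longer periods of the PER and CRY genes were shared by most genes. No member was called at an adjusted p under 0.05 at any of the 6 other periods tested, and at 28 h PER2 had an adjusted p of 0.205. The periods were compared without the slide as a block.

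PER1, NR1D1, NR1D2 and DBP shared one further feature, noticed only after the values were seen. The times 12, 36 and 60 h are the only 3 array times spaced by 24 h that have an array on both sides, and these 4 members were above both neighbouring arrays at all of them, as were 6.68% of all genes. PER1 exceeded the mean of its neighbours by 0.56, 0.95 and 0.77 log2 at 12, 36 and 60 h. NR1D1 did so by 0.54, 0.66 and 0.42, while NR1D2 (0.17, 0.50 and 0.18) and DBP (0.25, 0.08 and 0.40) did so by less. These are the brightest probes. The other probe of PER3 had the pattern too (0.44, 0.44 and 0.41), whereas its brightest probe was below the mean of its neighbours at 36 h (-0.15). The other probe of NR1D2 also had it, and those of PER2 and CLOCK did not. With the array median as the scaling 6 members had the pattern (PER1, CRY1, CRY2, NR1D1, NR1D2 and DBP), but 15% of all genes did as well. With the spike-in RNA there were 3 (PER1, NR1D1 and DBP) and 4.66%. After a straight line was removed there were 3 (PER1, NR1D1 and NR1D2) and 6.76%. PER1 and NR1D1 also had other high arrays, at 24 and 28 h, and the neighbour of the 12 h array at 14 h lay on the next slide.

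**Figure D2:**
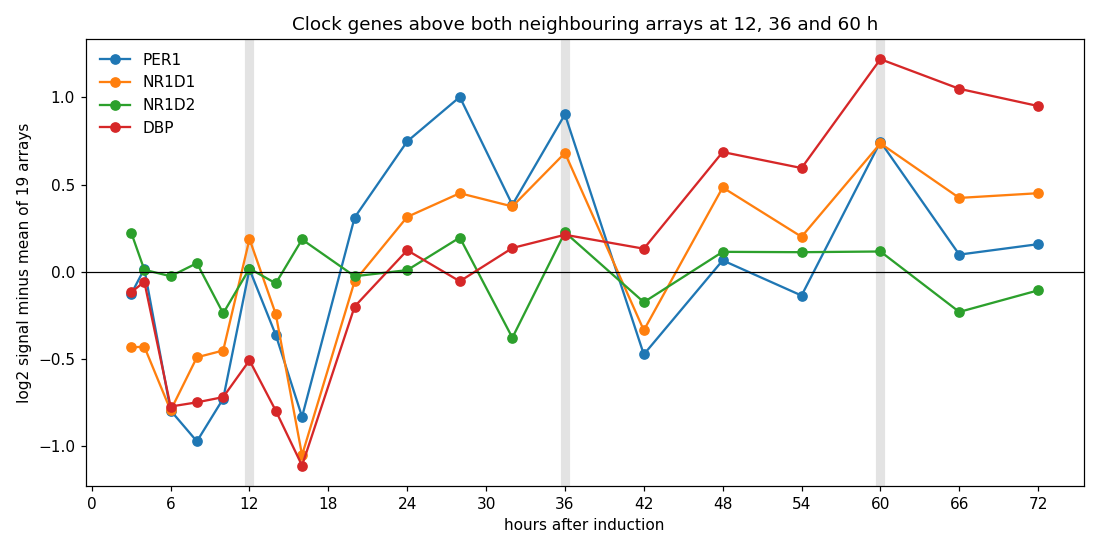
Log2 signal of PER1, NR1D1, NR1D2 and DBP minus the mean of the 19 arrays, against hours after induction. Grey bands mark 12, 36 and 60 h, at which each gene is above both neighbouring arrays. PER1 and NR1D1 have the tallest of these steps, and both are also high at 24 and 28 h.

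The similarity of the members to each other and to the rest of the genes was described by Pearson's r of log2 signal over the 19 arrays, which share time, slide and scaling. After a straight line was removed from each, the closest pair was PER1 and NR1D1 (r = 0.856), followed by PER2 and CRY2 (0.791), PER2 and PER3 (0.769), PER1 and CRY2 (0.765) and CRY1 and CLOCK (0.735). BMAL1 then had r of -0.174 to NR1D1, its repressor, -0.040 to PER3 and 0.266 to DBP. With the line left in, these were -0.697, -0.757 and -0.766, as BMAL1 fell where the others rose. Ranked by the highest r with the line left in, among 13989 genes well above background on every array the members were not each other's nearest. By this measure the member nearest to PER1 was NR1D1, at rank 54 (r = 0.842), and that nearest to PER2 was CRY2, at rank 23 (0.804), whereas the member nearest to BMAL1 was NR1D2, at rank 6686 (0.173).
The 3 genes most like PER1 were FAM72A (0.945), ANKZF1 (0.940) and VPS37D (0.934), and those most like NR1D1 were HSD11B1L (0.947), the stress-response factor DDIT3 (0.945) and the long noncoding RNA NEAT1 (0.926). BMAL1 was most like CDS2 (0.973), PGRMC1 (0.964) and PHF19 (0.963), and DBP most like SLC12A4 (0.962), STARD10 (0.960) and the deacetylase SIRT2 (0.959). Genes most like PER3 included FRY (0.965) and SCRN2 (0.962), and PER2 was most like SEMA4G (0.873), SERAC1 (0.872) and BRSK2 (0.852). CRY1 was most like HSPA2 (0.907), IRS1 (0.890) and PURA (0.889), and CRY2 most like RAB6C (0.922), WDR45B (0.919) and MINDY2 (0.917). Genes most like CLOCK included the cell cycle inhibitor CDKN1C (0.851) and KIF3A (0.819), and NR1D2 was most like SPAST (0.828), CCDC15 (0.815) and PRELID3B (0.792).

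The proteins that work with the clock were taken as a list of 40 other genes, all of which were tested. Of these 5 rose and 15 fell, where 24.6% and 29.8% of all genes did. With the slide as a block 0 rose and 3 fell, TIPIN, NONO and PPARGC1A, where 4.12% and 5.95% of all genes did. A 24 h component was called in 0 of 40 by limma and seen at an unadjusted p under 0.05 in 5, against 6.73% of all genes. TIPIN, the partner of TIMELESS at replication forks, fell from an early mean of 6446 to a late mean of 2439 (slope -0.0237, standard error 0.0024, adjusted p = 2.39e-07), and TIMELESS from 26136 to 19916 (adjusted p = 1.51e-05). NONO and SFPQ, RNA-binding proteins found in PER complexes, fell from 24507 to 14678 (adjusted p = 2.45e-06) and from 26020 to 16923 (adjusted p = 3.5e-05). WDR5, a subunit of histone methyltransferase complexes, fell from 12369 to 7418, the acetyltransferase EP300 from 1715 to 983 and BTRC, which marks PER proteins for degradation, from 707 to 484. CSNK1E, a kinase of the PER proteins, rose from 822 to 1174 (adjusted p = 0.000227).
RORA, the nuclear receptor that activates BMAL1 at the elements where NR1D1 represses it, rose from an early mean of 877 to a late mean of 2022 (adjusted p = 0.0206), with a downward change of slope at 24 h of -0.1149 (adjusted p = 6.66e-06). BMAL1 fell over the same arrays. The paralogue BMAL2 had no called slope (411 early, 369 late, adjusted p = 0.196) but an upward change at 24 h of 0.0258 (adjusted p = 0.000924). CUL4A and RACK1 had upward changes too, of 0.0608 (adjusted p = 9.97e-06) and 0.0220 (adjusted p = 0.000425).
The genes of the inputs and outputs of the clock were taken as 3 further lists. Of 10 genes of the cAMP and calcium response 4 rose and 2 fell, and of 8 glucocorticoid response genes 1 rose and 1 fell. Of 26 tested output genes, a list that holds all 10 members, 6 rose and 2 fell, and among the 16 that are no members 2 rose and 1 fell. These counts stand beside 24.6% rising and 29.8% falling among all genes. With the slide as a block no gene of the first 2 lists was called, and of the outputs 1 rose and 1 fell. None of these 3 lists had a gene with a 24 h component at an adjusted p under 0.05 by limma, and at an unadjusted p under 0.05 there were 0 of 10, 3 of 8 and 2 of 26, against 6.73% of all genes. The 2 output genes were the member PER2 and TSC22D3, which is also 1 of the 3 glucocorticoid genes. The 12, 36 and 60 h pattern, which was noticed on 4 of the members, was found in 3 of 10 cAMP genes, 2 of 8 glucocorticoid genes, 8 of 40 partners and, with the members left out, 6 of 16 output genes, against 6.68% of all genes. These lists overlap, since 8 of the 16 are also partners and 1 is a glucocorticoid gene, and among the 7 outputs in no other list 2 had the pattern.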

How the data were processed

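RNA of KhES-3 cells was measured at 19 time points on one-colour Agilent SurePrint G3 Human GE 8x60K arrays, 1 array for each. The authors deposited the output of Agilent Feature Extraction 10.10.1.1 per array, in which the processed signal of a spot is an intensity with the background subtracted, without scaling between arrays. The raw pixel intensity, its background and flags of 0 or 1 (an other kind of column, as deposited) come with it. The authors also deposited a table of the processed intensities times 1 factor per array, which was used as an alternative.

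Flagged spots were left out, no spot was saturated, spots of a probe were averaged, and log2 signals were scaled by the array's 75th percentile (655 to 1003 before scaling). The arrays have no read depth, and their number limits the precision. Probes were matched to 20503 genes through RefSeq (GRCh38.p14), and the brightest probe represented a gene. Probes that were well above background on 5 or more arrays (32162) entered the fits of limma 3.58.1, run in R 4.3.3 (Benjamini-Hochberg adjustment over all probes, adjusted p under 0.05): a slope on hours, a 24 h cosine and sine beside a line, and a line bent at 24 h. Tables were made with Python 3.11.15, numpy 2.4.6 and pandas 2.3.3, and the fits were tested on simulated data. The p-values rest on the scatter of single arrays around each curve, with no replicate cultures.

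The members and lists were chosen with earlier results of these data known. All 10 members were named, with up to 12 of the partner genes called in any test by smallest adjusted p and the 3 genes most like each member. Of the latter, 1 gene for PER3 and 1 for CLOCK are not reported here. PPARGC1A, the comparisons of windows, of lowest and highest arrays and of 12, 36 and 60 h, the third slide without its last array and the lists without members or shared genes were chosen after the values were seen. Alternatives were the slide as a block, the array median or spike-in RNA as the scaling, normexp (offset 50) on the pixel intensity with quantile normalization, the deposited table, other background filters, the mean over a gene's detected probes, log2 hours, 3 to 54 h, other trends and periods, and each array left out in turn. The label gives a feeder layer of mouse fibroblasts for the maintenance of the cells and the methods a feeder-free system, and the arrays were not used to decide between them.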

Additional observations from a re-analysis of the deposited data

Results flagged for a closer look

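The slopes of PER2 and CRY2 before and after 24 h differed by the test of the bend itself, but for neither gene with the slide as a block (adjusted p = 0.304 and 0.151). The change of slope at 24 h was -0.0540 log2 per hour for PER2 (limma adjusted p = 0.0319) and -0.0480 for CRY2 (adjusted p = 0.000992). For PER2 the adjusted p rose above 0.05, to between 0.052 and 0.0959, when any 1 of the arrays at 20, 24, 28, 36, 66 or 72 h was left out, and it was 0.149 with the array median and 0.0565 with no filter on background. For CRY2 the call was kept under both of these settings, and the adjusted p stayed between 0.000474 and 0.00439 whichever array was left out. Downward changes were called in 21.4% of all genes tested.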

How the results depend on the processing

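The fall of BMAL1 was called under every alternative for the slope. With the slide as a block, 0 clock genes rose and 0 changed slope at 24 h. The array median gave 2 falling genes (NR1D2 beside BMAL1) and 1 with a changed slope. The spike-in RNA gave 1 rising gene and 4 with a changed slope. No filter on background gave 1 with a changed slope, and the mean over a gene's detected probes gave 4. With 1 array left out, 3 to 4 clock genes rose, 1 to 1 fell, 0 to 0 had a 24 h component and 1 to 4 changed slope. The share of all genes with a changed slope was counted in the main setting only. Whether the members' counts under the alternatives differ from that of other genes was therefore not tested. The 24 h component was called in 0 clock genes under every trend, period and scaling. Over 3 to 54 h 5 clock genes rose, with PER2 (0.0200) and CRY2 (0.0123) and without CRY1, where 9430 of 32162 probes rose. Slopes that were not called turned sign as follows. CLOCK had -0.000354 with the slide block, -0.00437 scaled by the array median, -0.00758 by spike-in RNA, -9.15e-05 with the deposited table, -0.00749 on log2 hours, -0.00459 over 3 to 54 h, and with 1 array left out it ranged from -0.000782 (without the 60 h array) to 0.00192. PER2 had -0.00145 with the slide block and -0.00297 with the spike-in RNA, CRY2 -0.0018 scaled by the array median and -0.00501 by spike-in RNA, and NR1D2 0.00145 with the mean of all probes and 0.000246 over 3 to 54 h. CRY1, called in the main setting, had -0.000122 with the spike-in RNA. Of all probes 9947 rose and 7209 fell. Scaled by the array median these were 4688 and 11120, scaled by spike-in RNA 1489 and 11192, and beside the slide block 1515 and 1433. The mean of all probes of a gene, which counts genes, gave 4368 and 4756. At a period of 36 h 51 probes were called. The causes were not tested, except that fewer features enter where genes replace probes. No paired analysis was possible because the time points have no replicates. All clock genes were well above background on every array by their brightest probe, so no value of theirs is a bound.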
